A study of Mus musculus with 8 samples.

Results

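The natriuretic peptide system of the heart was followed through 6 genes, which encode a pair of secreted peptides (Nppa, Nppb), their 3 receptors (Npr1, Npr2, Npr3) and the protease that activates the Nppa product (Corin). The genes were looked up in the deposited expression table by their symbols, with no threshold on measured values, and all 6 were found among its 23045 genes. The study deleted Mettl3, which encodes the catalytic subunit of the m6A RNA methyltransferase complex, in cardiomyocytes of adult mice, and sequenced total RNA of 4 WT and 4 Mettl3 KO hearts. WT hearts carried floxed Mettl3 alleles without Cre (Mettl3lox/lox), and Mettl3 KO hearts carried the same alleles with the alphaMHC-MerCreMer transgene (Mettl3lox/lox:alphaMHC-MerCreMerpos). Per the study's methods, mice of both genotypes were 10 to 16 weeks old when tamoxifen injections began, and they received 100 µg per g body weight on each of 7 consecutive days. The alphaMHC promoter restricts Cre to cardiomyocytes, so that other cells of the heart keep Mettl3, and the effects of the transgene itself cannot be told apart from those of the deletion because WT mice lacked it. The labels do not say that each library came from its own animal, and p-values rest on the spread between these libraries, whatever its source. In limma, which gave the p-values of single genes, this spread is in part that of other genes of similar level.

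Cardiomyocytes store and release the atrial natriuretic peptide ANP (from Nppa) and the brain natriuretic peptide BNP (from Nppb), which promote sodium excretion, widen vessels and restrain growth of the heart muscle. In the healthy adult heart Nppa is mainly an atrial gene, and the return of both peptide genes in the ventricle is a widely used sign of hypertrophy or failure. ANP and BNP act through NPR1, a receptor with guanylyl cyclase activity that makes cyclic GMP, whereas NPR2 answers to the C-type peptide and NPR3, which has no cyclase domain, takes the peptides up and clears them.

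Nppa and Nppb lie next to each other on chromosome 4, and the 250 bases before each start site are shown because these are the only ones among the 6 promoters that held any of the motifs searched. Sequences are those of RefSeq in build GRCm38.p6, in which all 6 genes were matched by symbol, and run 5′ to 3′ on the strand of the gene. Capitals mark matches to 5 motifs, in order from the left in Nppa the T-box, NKX2-5, GATA, GATA and TATA motifs, and in Nppb the TEAD, GATA, GATA and TATA motifs.
Nppa, chr4:148000472-148000721, + strand: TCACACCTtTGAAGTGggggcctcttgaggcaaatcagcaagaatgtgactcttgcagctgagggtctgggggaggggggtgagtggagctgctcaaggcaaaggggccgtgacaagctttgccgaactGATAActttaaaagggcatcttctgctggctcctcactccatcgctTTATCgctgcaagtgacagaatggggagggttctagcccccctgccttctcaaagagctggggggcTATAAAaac
Nppb, chr4:147985650-147985899, + strand: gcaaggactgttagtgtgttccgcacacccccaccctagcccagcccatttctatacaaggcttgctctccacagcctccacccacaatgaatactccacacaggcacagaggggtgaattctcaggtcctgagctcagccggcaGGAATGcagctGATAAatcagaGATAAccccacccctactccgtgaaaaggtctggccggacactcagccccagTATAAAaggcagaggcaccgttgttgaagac

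The motifs were searched on both strands, except TATA, which was searched on the strand of the gene. The T-box motif AGGTGTGA was held by Nppa and by 1.12% of 32851 mouse promoters of the same length, and lay 250 to 243 bases before the start, read on the opposite strand. The NKX2-5 motif TNAAGTG followed it at 241 to 235 bases, and was held by 10.1% of promoters. The GATA motif GATAA was present in both peptide genes, in each case at 2 places, and in 22.6% of promoters. In Nppa these lay 121 to 117 and 75 to 71 bases before the start, the latter on the opposite strand, and in Nppb 94 to 90 and 83 to 79 bases before it. The TEAD motif GGAATG (M-CAT element, 12.6% of promoters) was found in Nppb, at 105 to 100 bases, and not in the window of Nppa. TATAAA (7.59% of promoters) lay 9 to 4 bases before the annotated start of Nppa and 31 to 26 bases before that of Nppb. The CArG box, the motif bound by SRF, was searched as CC, then 6 letters of A or T, then GG. Exact matches were found in 1.47% of promoters and in none of the 6, and sites that differ from this pattern were not counted. A match describes the letters only, since binding was not measured here.

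The sums of normalized read counts lay between 2839589 and 2916986 per library, and the read totals recovered from them between 2631305 and 3062476. Mettl3 fell from 116 ± 12.8 to 72.2 ± 4.65 (SD, n = 4 libraries per genotype, log2 change -0.67, limma adjusted p = 0.000184), and Esr1, whose ligand-binding part belongs to the MerCreMer transgene, ranged from 13 to 20 in WT and from 693 to 851 in Mettl3 KO libraries. Both genes fit the labels in every library. Levels of atrial markers differed between libraries. Myl7, the atrial myosin light chain, stood at 26, 21, 0 and 23 in WT, against 23, 65, 90 and 119 in Mettl3 KO libraries. The summed level of 10 atrial markers ranged from 2588 to 2862 in WT and from 2943 to 4060 in Mettl3 KO hearts. The marker Pam made up a large part of this sum, with 1463 to 1539 in WT and 1777 to 1895 in Mettl3 KO libraries. In this sum WT replicate 3 and Mettl3 KO replicate 1 were the lowest of their genotypes. The changes of Nppa, Nppb and Corin, the Nppa over Nppb ratio and some further results are given with and without them, together or singly.

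Of the 6 genes, 4 changed with Mettl3 deletion at an adjusted p of 0.05 (limma over 20313 genes), 3 of them upward (Nppa, Nppb, Npr3) and 1 downward (Corin). Among all genes tested the same threshold was passed by 7.91%, with 4.72% higher and 3.19% lower in Mettl3 KO hearts. Both peptide genes and the clearance receptor rose, the guanylyl cyclase receptors Npr1 and Npr2 did not pass the test, and the small decrease of Corin depended on single libraries. Without the mean-variance trend of the fit 1 of the 6 was called (Npr3), and without WT replicate 3 and Mettl3 KO replicate 1 the calls were 2 (Nppa, Npr3). WT and Mettl3 KO values did not overlap for 3 of the 6, which was also the case for 11.5% of all genes. The median log2 fold change of all genes tested was -0.01, a value close to 0 by the scaling of the libraries.

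**Figure D1:**
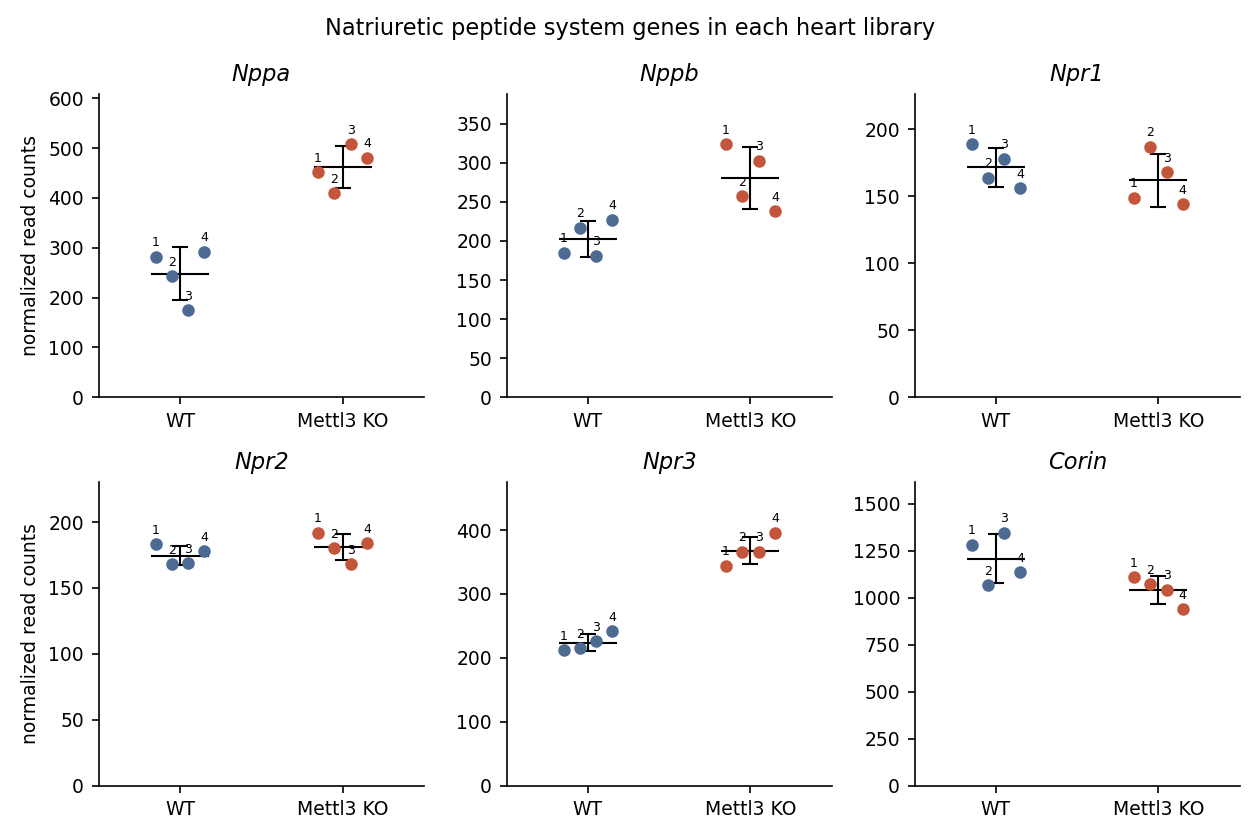
Normalized read counts (vertical axes, from 0) of the 6 genes in each of 4 WT (blue) and 4 Mettl3 KO (red) heart libraries, numbered by replicate, with horizontal lines for means and bars for SD. The groups are apart for Nppa (175 to 292 against 410 to 508), Nppb (181 to 227 against 238 to 324) and Npr3 (212 to 242 against 344 to 396), and overlap for Npr1, Npr2 and Corin.

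Nppa (ENSMUSG00000041616, mm39 chromosome 4, 148085179 to 148086536, + strand) encodes the ANP precursor. Its normalized read counts were 282, 243, 175 and 292 in WT libraries and 452, 410, 508 and 481 in Mettl3 KO libraries, in replicate order. Every Mettl3 KO library was above every WT library, and WT replicate 3 was the lowest of all. The mean of 4 libraries with its SD was 248 ± 53.1 in WT hearts and rose to 463 ± 41.9 after deletion of Mettl3, a ratio of 1.87. Errors of levels are SDs over 4 libraries throughout. On the log2(value + 1) scale the change was 0.92 (SE 0.109, 95% interval 0.69 to 1.15, limma adjusted p = 8.74e-06). By p, Nppa took rank 59 among all genes tested, and its change exceeded that of 86.4% of the genes called higher. The counting error of a single library was at most 7.4%. Leaving out any 1 library gave changes between 0.76 and 1.01.

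Levels of some atrial markers moved beside Nppa. WT replicate 3, with Myl7 at 0, had the lowest Nppa value. Mettl3 KO replicate 1 had an Nppa value of 452, above every WT library. Its atrial index was -0.50, below those of 3 WT libraries (-0.22 to 0.05). This index is the mean of the log2 marker levels after each was centred and divided by its SD. Without WT replicate 3 and Mettl3 KO replicate 1 the log2 change of Nppa was 0.77 (limma adjusted p = 0.000111), and with the atrial index as a covariate it was 0.75 (limma adjusted p = 4.16e-05). Of the 10 atrial markers, 6 were called higher and none lower. Those called include Sln (sarcolipin), Bmp10 and Pam, the enzyme that amidates secreted peptides and a major protein of atrial granule membranes. The 4 not called all had negative log2 changes, -0.14 for Kcnj3, -0.30 for Kcna5, -0.20 for Nr2f1 and -0.02 for Nr2f2. Bmp10 was at 0 in every WT library and in Mettl3 KO replicate 1, and at 195, 158 and 358 in the other Mettl3 KO libraries. The call of Myl7 was lost without Mettl3 KO replicate 2, 3 or 4 (limma adjusted p = 0.0893, 0.11 and 0.117), as was that of 1 more marker, so that 4 of the 10 were then called. With voom weights Bmp10 was not called (limma adjusted p = 0.543), and without the mean-variance trend 0 of the 10 were. The median log2 change of the 10 was 0.97, and 3 of them were at 0 in at least 1 library. In these bulk samples, fewer or more cells of a type cannot be told apart from a change of RNA per cell. The part of atrial cells in the level of Nppa was not tested.

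**Figure D2:**
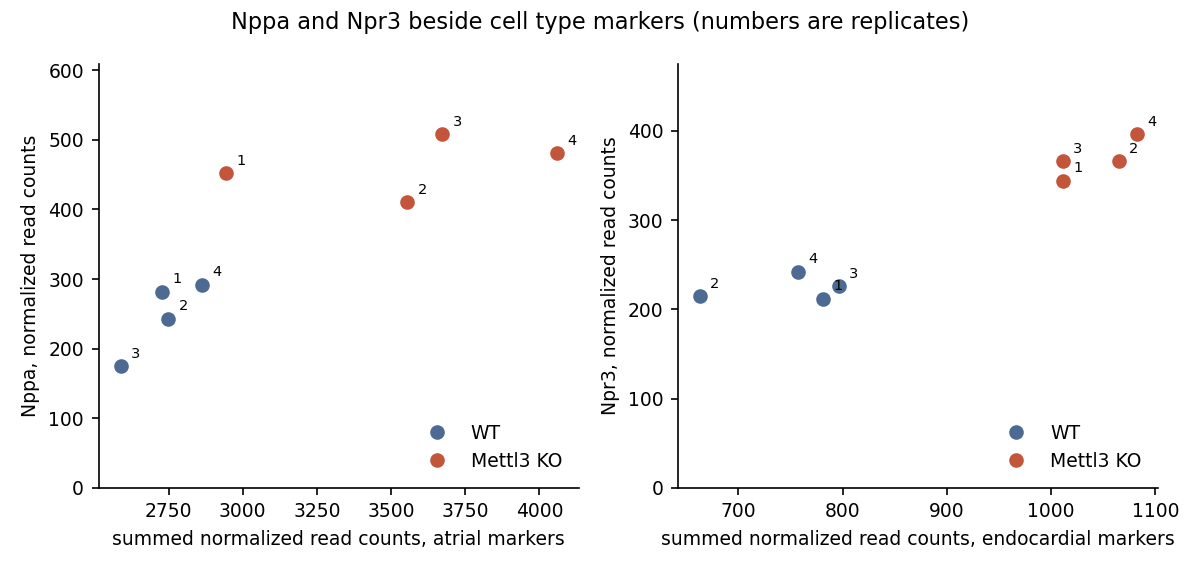
Left, normalized read counts of Nppa against the summed normalized read counts of 10 atrial markers, and right, those of Npr3 against the sum of 6 endocardial markers, with 1 point per library (WT blue, Mettl3 KO red) and replicate numbers. Mettl3 KO replicate 1 lies close to the WT libraries on the atrial axis (2943 against up to 2862) and above all of them in Nppa (452 against up to 292), whereas both Npr3 and the endocardial sum separate the genotypes (663 to 796 against 1011 to 1082). The atrial sum is made up in large part of Pam, and the endocardial sum of Vwf (450 to 593 in WT, 690 to 775 in Mettl3 KO libraries). By the atrial index Mettl3 KO replicate 1 was at -0.5, below WT replicates 1, 2 and 4 (-0.22 to 0.05).

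Nppb (ENSMUSG00000029019, mm39 chromosome 4, 148070245 to 148071662, + strand) encodes the BNP precursor, a peptide used as a clinical marker of heart failure. Its normalized read counts were 185, 217, 181 and 227 in WT, against 324, 257, 303 and 238 in Mettl3 KO libraries. The groups did not overlap, although Mettl3 KO replicate 4 was only slightly above WT replicate 4. Mean levels were 202 ± 22.9 in WT and 280 ± 39.8 in Mettl3 KO hearts, a ratio of 1.39 and a log2 fold change of 0.46 (SE 0.092, 95% interval 0.27 to 0.65, limma adjusted p = 0.00211). The library with the highest Nppb value was Mettl3 KO replicate 1, the Mettl3 KO library lowest in atrial markers. Without this library and WT replicate 3 the log2 change was 0.34 and narrowly missed the threshold (limma adjusted p = 0.0505), whereas with the atrial index as a covariate it was 0.53 (limma adjusted p = 0.00119).

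The rise was smaller in Nppb than in Nppa in the fitted values, and the ratio of both within a library was compared directly. Nppa over Nppb was 1.52, 1.12, 0.97 and 1.29 in WT, against 1.40, 1.60, 1.68 and 2.02 in Mettl3 KO libraries. The ranges overlapped, since WT replicate 1 was above Mettl3 KO replicate 1. The difference of the log2 ratio was 0.46 (two-sided exact permutation test over 70 splits, p = 0.0571, adjusted p = 0.0762 over 4 ratios), so that a stronger rise of Nppa was not shown beyond the spread of libraries. This difference was 0.35 without WT replicate 3 and 0.54 without Mettl3 KO replicate 1. Across the 8 libraries the log2 levels of both genes had a Pearson correlation of 0.84, and 0.38 once the genotype means were taken off, a description that includes the genotype difference itself.

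Both peptide transcripts are short, and the way the reads were processed bears on them. The authors removed duplicates, and of single-end reads that share start and strand only 1 is then kept, so that the number of exonic bases sets a ceiling of 1 read per base. Over 20970 genes of more than 400 exonic bases the highest mean was 0.775 reads per base, in the myosin heavy chain gene Myh6, and the median was 0.0106. Nppa, with 865 exonic bases, held 0.411 reads per base on average (0.211 to 0.598 between libraries) and ranked 36 in this table. Nppb, with 781 bases, held 0.309 (rank 84) and Corin 0.210 (rank 225), whereas the 3 receptor genes were between 0.032 and 0.038. If starts were spread evenly over the exonic bases, the fragments behind these reads would give a log2 change of 1.19 for Nppa (limma adjusted p = 2.49e-06), 0.55 for Nppb, 0.73 for Npr3 and -0.25 for Corin. The direction and call of each stayed as before, while the size of the Nppa change was the one most affected by this step.

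**Figure D3:**
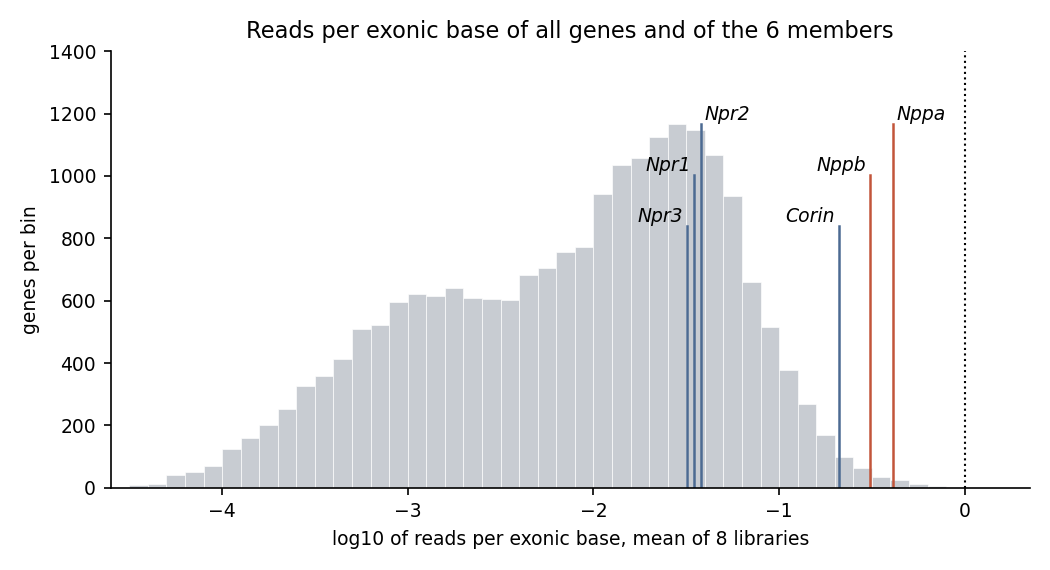
Histogram of log10 reads per exonic base, as the mean of 8 libraries, over all genes with more than 400 exonic bases, with vertical lines for the 6 genes and a dotted line at 1 read per base. Nppa (0.411), Nppb (0.309) and Corin (0.210) lie in the right tail close to the dotted line, and the receptor genes near 0.03 lie in the body of the histogram.

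The genes around the pair did not pass the test. The end of Nppb and the start of Nppa are 13516 bases apart, and 10 other genes of the table lie within 100 kb of either. Of these, 8 could be tested and none was called by limma, beside 7.91% of all genes tested. The protein-coding gene 2510039O18Rik, before Nppb, had a log2 change of 0.23 with overlapping values (limma adjusted p = 0.202). Plod1 and Clcn6, on either side of the pair, had log2 changes of -0.13 (adjusted p = 0.341) and -0.14 (adjusted p = 0.589), and Mfn2, a highly expressed mitochondrial fusion gene, one of 0.02. Gm13054, a long noncoding RNA on the minus strand that overlaps Nppa, stood at 5, 1, 0 and 2 in WT, against 4, 3, 4 and 7 in Mettl3 KO libraries (log2 change 1.12, limma adjusted p = 0.197). Reads were counted by strand, and at these low numbers a difference of Gm13054 was not detectable.

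Npr3 (ENSMUSG00000022206, mm39 chromosome 15, 11839982 to 11907373, - strand), the clearance receptor, showed the lowest p of the 6 genes. Normalized read counts were 212, 215, 226 and 242 in WT, against 344, 366, 366 and 396 in Mettl3 KO libraries. Within each genotype the libraries lay close together, and a wide gap separated the genotypes. The mean rose from 224 ± 13.6 to 368 ± 21.4, a ratio of 1.64 and a log2 fold change of 0.72 (SE 0.064, 95% interval 0.58 to 0.85, limma adjusted p = 2.72e-07). This placed Npr3 at rank 15 among all genes tested, and its change exceeded that of 77.9% of the genes called higher. In 20 alternative analyses the log2 change stayed between 0.66 and 0.75, and the gene was called in each of them.

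Npr3 is a gene of endocardial cells as well as of other cell types of the heart, and markers of these cells moved beside it. Among 6 endocardial markers, Vwf (von Willebrand factor, 535 ± 61.9 to 730 ± 35.1) and Cdh11 (99.2 ± 15.6 to 158 ± 13.1) rose and none fell, with a median log2 change of 0.53. The other 4 did not pass the test, and Vwf made up a large part of the summed level of this list. In contrast, 4 of 8 general endothelial markers fell and none rose (the calls of Flt1 and Cdh5 were lost in 11 and 3 of 20 alternatives, median -0.17, summed level 5032 to 5238 in WT and 4353 to 4771 in Mettl3 KO hearts). Of 8 fibroblast markers 6 rose, including Dcn (0.30) and Lum (0.48), with a median of 0.35 and sums of 3741 to 4195 against 4603 to 5260. Without the mean-variance trend Lum was the one marker of these 3 lists still called (limma adjusted p = 0.0482). No marker of these 3 lists was at 0 in any library, and the part of these cell types in the level of Npr3 was not tested.

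Npr1 (ENSMUSG00000027931, mm39 chromosome 3, 90357898 to 90373173, - strand) encodes the cyclase receptor for ANP and BNP. Its normalized read counts were 189, 164, 178 and 156 in WT, against 149, 187, 168 and 144 in Mettl3 KO libraries. The groups overlapped over most of their range, with means of 172 ± 14.7 and 162 ± 19.6. The log2 change amounted to -0.09 (SE 0.089, limma adjusted p = 0.659), and its 95% interval, -0.27 to 0.10, allows ratios between 0.83 and 1.07.

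Npr2 (ENSMUSG00000028469, mm39 chromosome 4, 43631935 to 43651244, + strand), the cyclase receptor for the C-type peptide, was measured at 183, 168, 169 and 178 in WT, against 192, 180, 168 and 184 in Mettl3 KO libraries. The values of both genotypes lay in the same narrow range, with means of 174 ± 7.23 and 181 ± 10. The log2 change amounted to 0.05 (SE 0.073, limma adjusted p = 0.769), with a 95% interval of -0.10 to 0.20, or ratios between 0.93 and 1.15. For both cyclase receptors, an increase of the size seen in Npr3 (ratio 1.64) lies outside the interval.

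The ratio of clearance to cyclase receptor transcripts was also compared within libraries. Npr3 over Npr1 was 1.12, 1.31, 1.27 and 1.55 in WT libraries and 2.31, 1.96, 2.18 and 2.75 in Mettl3 KO libraries. All Mettl3 KO ratios were above all WT ratios, and the mean log2 ratio went from 0.38 to 1.19, a difference of 0.81. The exact permutation p was 0.0286, the smallest that 4 against 4 libraries can give, and 0.0571 after adjustment over the 4 ratios, which misses the threshold of 0.05. Npr2 over Npr1 was 0.97, 1.02, 0.95 and 1.14 in WT, against 1.29, 0.96, 1.00 and 1.28 in Mettl3 KO libraries, with overlapping ranges and a log2 difference of 0.14 (exact permutation p = 0.314).

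Corin (ENSMUSG00000005220, mm39 chromosome 5, 72457368 to 72661816, - strand) encodes the transmembrane serine protease that cleaves the ANP precursor on the surface of cardiomyocytes. Its normalized read counts were 1281, 1065, 1346 and 1136 in WT, against 1110, 1071, 1042 and 940 in Mettl3 KO libraries. The groups overlapped, since WT replicate 2 was below 2 of the Mettl3 KO libraries. The mean fell from 1207 ± 129 to 1041 ± 72.7, a ratio of 0.86 and a log2 fold change of -0.21 (SE 0.061, 95% interval -0.34 to -0.08, limma adjusted p = 0.0367). The call was lost without any 1 of 5 libraries. The adjusted p was then 0.139 without WT replicate 1, 0.135 without WT replicate 3, 0.0781 without Mettl3 KO replicate 2, 0.105 without Mettl3 KO replicate 3 and 0.161 without Mettl3 KO replicate 4. It was also lost with the atrial index as a covariate, where the change was -0.11 (limma adjusted p = 0.309). Of 8 cardiomyocyte markers only Ryr2 was called, with a log2 change of -0.23, and their median was 0.05. Of 8 smooth muscle and pericyte markers 1 fell, Abcc9 (log2 change -0.20, limma adjusted p = 0.00152), with a median of -0.08.

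Corin was also compared within each library with Nppa, which encodes its substrate. The ratio of Corin to Nppa was 4.54, 4.38, 7.69 and 3.89 in WT, against 2.46, 2.61, 2.05 and 1.95 in Mettl3 KO libraries, without overlap. The mean log2 ratio went from 2.30 to 1.17, a difference of -1.13 (exact permutation p = 0.0286, adjusted p = 0.0571 over the 4 ratios, above the threshold). Most of this difference was that of Nppa, and WT replicate 3, the library lowest in Nppa, had the highest ratio. Leaving out any 1 library kept the difference between -1.25 and -0.92.

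**Figure D4:**
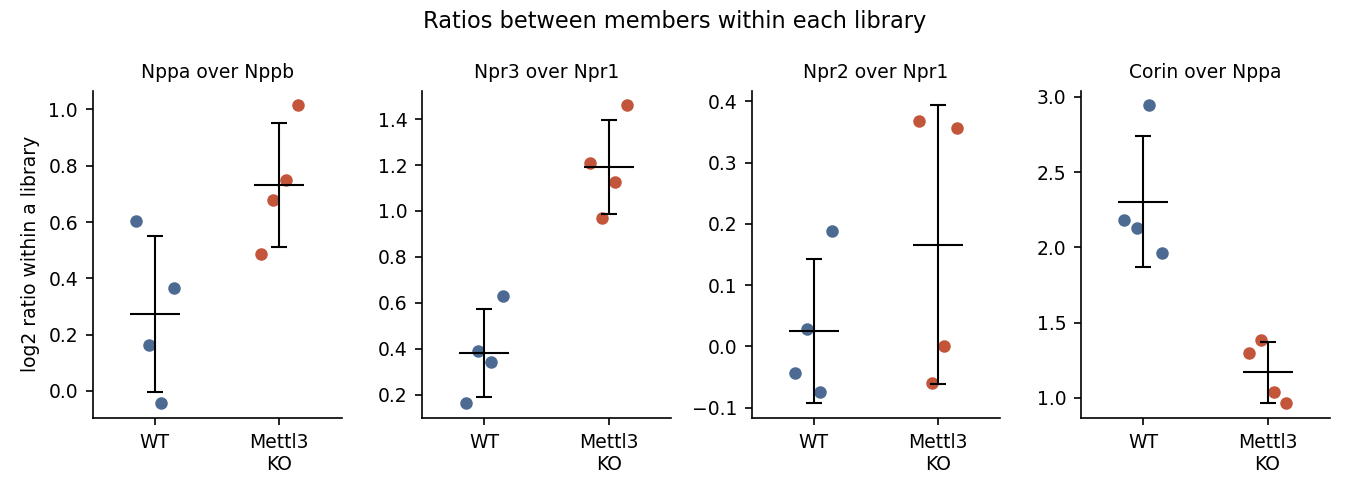
Log2 ratios between genes within each library (vertical axes, each with its own range) for 4 WT (blue) and 4 Mettl3 KO (red) hearts, with lines for means and bars for SD. The genotypes are apart for Npr3 over Npr1 (means 0.38 and 1.19) and for Corin over Nppa (means 2.30 and 1.17), and overlap for Nppa over Nppb and Npr2 over Npr1.

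Levels of different genes can be compared only per length. The levels below were not corrected for start positions, a step that raised Nppa, Nppb and Corin more than the receptors. In normalized read counts per kb of exonic sequence, WT hearts held 287 ± 61.3 of Nppa, 259 ± 29.4 of Nppb and 224 ± 23.9 of Corin, and the ranges of neighbours in this order overlapped. The receptors were far lower, with 37.4 ± 1.55 for Npr2, 35.9 ± 3.07 for Npr1 and 23.8 ± 1.45 for Npr3. In Mettl3 KO hearts the order was Nppa (535 ± 48.5), Nppb (359 ± 51), Corin (193 ± 13.5), Npr3 (39.2 ± 2.27), Npr2 (38.8 ± 2.14) and Npr1 (33.9 ± 4.1). Npr3 thus moved from the last place into the range of the cyclase receptors, from which it no longer differed beyond the spread in the case of Npr2. The exonic length of Npr3 is 9389 bases over all its transcripts and 6892 in its principal one, and by the latter its level was 32.5 in WT and 53.4 in Mettl3 KO hearts, above the 49.5 of Npr2. By principal transcripts Npr1 and Npr2 were at 42.2 and 47.7 in WT hearts, and Npr1 at 39.8 in Mettl3 KO hearts. By either length the mean of Npr3 was the lowest of the receptors in WT and the highest in Mettl3 KO hearts. Its distance from Npr2 in Mettl3 KO hearts depended on the length used.

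**Figure D5:**
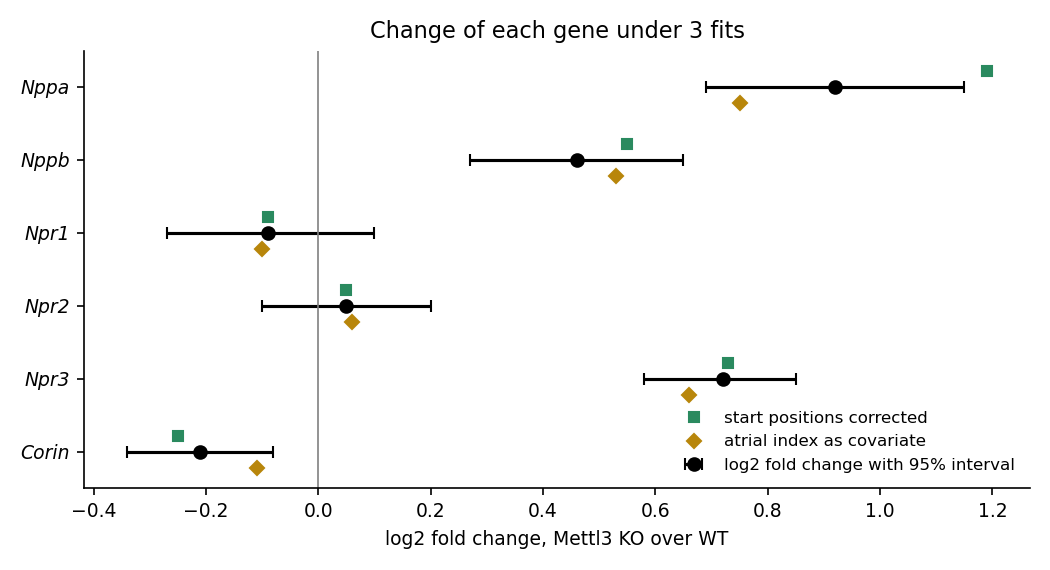
Log2 fold change of Mettl3 KO over WT for the 6 genes (horizontal axis), with black points and bars for the estimate and its 95% interval, squares for values corrected for start positions and diamonds for the fit with the atrial index as a covariate. Nppa lies at 0.92, 1.19 and 0.75 in these fits and Npr3 at 0.72, 0.73 and 0.66, whereas Corin moves from -0.21 to -0.11 with the atrial index.

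The wider pathway was described by 43 genes in 4 lists, of which 41 were tested and 6 called (14.6%, beside 7.91% of all genes), 5 of them higher and 1 lower. Their median log2 change was 0.01, against -0.01 over all genes. The medians of the 4 lists lay between -0.04 and 0.04. In the fit without the mean-variance trend, 0 of the 41 were called.

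Among 4 genes for further processing, breakdown and rival ligands, Ide fell. It encodes the insulin-degrading enzyme, a protease that also cleaves ANP, and stood at 555, 512, 561 and 492 in WT, against 479, 395, 413 and 431 in Mettl3 KO libraries, without overlap (530 ± 33.4 to 430 ± 36.1, log2 fold change -0.30, SE 0.061, limma adjusted p = 0.00259). Furin, which cleaves the BNP precursor, had a log2 change of 0.02 (limma adjusted p = 0.889). Pcsk6, the protease that activates corin, had one of -0.06, and Mme, which encodes neprilysin, the main enzyme of natriuretic peptide breakdown, one of 0.13 (limma adjusted p = 0.597). Nppc and Ostn, which encode the C-type peptide and a ligand of NPR3, were not analysed here.

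Of 10 makers and targets of cyclic GMP, 2 rose. Prkg1, the cyclic GMP-dependent protein kinase, stood at 184, 209, 224 and 207 in WT, against 286, 257, 284 and 306 in Mettl3 KO libraries. All Mettl3 KO libraries were above the WT range, and the log2 change amounted to 0.46 (SE 0.073, limma adjusted p = 0.000255). Gucy1a1, a subunit of the soluble guanylyl cyclase that responds to nitric oxide, went from 243 ± 15.2 to 287 ± 27.6 with overlapping values (log2 change 0.24, limma adjusted p = 0.0464). Its call was lost in 12 of 20 alternatives, with adjusted p of 0.0559, 0.122, 0.129 and 0.0639 without WT replicates 1, 2, 3 and 4, and 0.124, 0.192 and 0.0983 without Mettl3 KO replicates 2, 3 and 4. The median of this list was -0.02.

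Phosphodiesterases end the signal by splitting cyclic GMP. Of 8 genes listed for them, which include Pde6d, a subunit without catalytic activity, 1 passed the test. Pde1a, a calcium-activated member, rose from 120 ± 9.91 to 150 ± 5.38 without overlap (117, 134, 117 and 111 against 153, 143, 155 and 148, log2 fold change 0.32, SE 0.083, limma adjusted p = 0.0175). The call was lost without WT replicate 4 (adjusted p = 0.0602) or without Mettl3 KO replicate 3 (adjusted p = 0.0647), and without WT replicate 3 and Mettl3 KO replicate 1 together (log2 change 0.30, limma adjusted p = 0.0726). Pde5a, the target of sildenafil, had a log2 change of -0.06, and Pde9a, which has been tied to natriuretic peptide signalling in the heart, one of -0.01. Neither passed the test. Pde1c had a log2 change of -0.16 (limma adjusted p = 0.0664) and was called lower in 5 of 20 alternatives, among them without Mettl3 KO replicate 1 (-0.22, limma adjusted p = 0.00338) and without this library and WT replicate 3 (-0.23, limma adjusted p = 0.0086). The median of the list was -0.04.

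Of 19 transcription regulators known to act on Nppa or Nppb, 2 rose and none fell. Tbx5, a T-box activator of Nppa, stood at 259, 224, 277 and 258 in WT, against 305, 326, 333 and 365 in Mettl3 KO libraries (254 ± 22.1 to 332 ± 24.9, log2 fold change 0.38, SE 0.071, limma adjusted p = 0.00116). Hand2, a basic helix-loop-helix factor, stood at 160, 171, 180 and 190 in WT, against 233, 223, 214 and 208 in Mettl3 KO libraries (175 ± 12.8 to 220 ± 10.9, log2 fold change 0.32, SE 0.073, limma adjusted p = 0.00645). For both, every Mettl3 KO library was above every WT library. Genes for other factors whose motifs were searched did not pass the test, with log2 changes of 0.07 for Gata4, 0.23 for Nkx2-5 (limma adjusted p = 0.249), -0.10 for Tead1 and 0.15 for Srf. Tead1 was called lower without Mettl3 KO replicate 1 (-0.17, limma adjusted p = 0.0256), Hdac9 with the atrial index as a covariate (-0.28, limma adjusted p = 0.0118) and Mef2a in 3 alternatives (-0.13 to -0.11). The median of the list was 0.04, and what these transcript levels mean for the promoters was not tested.

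The genes whose pattern was most like that of each member were sought among 12027 genes with a mean of at least 20, by Pearson correlation of log2 levels over the 8 libraries, which share their genotype difference and their differences in atrial markers. Those most like Nppa were Rab20 (0.991), Muc16 (0.987) and Gpc3 (0.984) (0.91 to 0.97 with genotype means taken off). Being the highest of so many genes over 8 libraries, such values are a description only, and they were about as high for Npr1 and Npr2, which did not pass the test. Nppb was followed by Lbh (0.987), Lmod2 (0.975) and Gja3 (0.971), of which Lbh and Gja3 were also highest in Mettl3 KO replicate 1. Npr3 was most like Tgfb2 (0.986), Rpl22 (0.985) and Zeb2 (0.980), but these fell to 0.57, 0.65 and 0.34 without the genotype means, so that the likeness was mostly that of the genotype means. For Corin these genes were Pdzd2, Gm48601 and Dym (0.970 to 0.981), for Npr1 Galnt15, Gm43637 and Kmt5c (0.939 to 0.955), and for Npr2 Zfyve16, Hacd4 and Cradd (0.945 to 0.964). No gene of the system was among the 3 most like another.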

How the data were processed

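Stranded single-end libraries of total RNA from 4 WT and 4 Mettl3 KO hearts were analysed. The submitters' processing notes and the methods state that the authors used Trimmomatic 0.39 for trimming, STAR 2.7.11a for alignment to mm39 (Ensembl release 109), Picard 3.1.1 for removal of duplicates, featureCounts 2.0.4 for strand-specific counts and DESeq2 1.36.0 for normalization. The values the authors deposited are a score, normalized counts rounded to whole numbers, so a count model was not run. Reads per library were recovered from rounding patterns as value over factor (factors 0.927 to 1.11), and the largest error on 7 simulated libraries was 3e-05. Intervals of counting error cover counting only.

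A minimum mean of 1 left 20313 genes and removed 2732. Their log2(value + 1) levels, a scale that understates the change of low genes, were compared between genotypes by limma 3.58.1 (R 4.3.3), using a mean-variance trend but no covariate. The trend draws the variance of each gene toward that of genes of similar level. Without it the SE was 0.170 for Nppa (0.109 with it) and 0.099 for Corin (0.061 with it). Tests were two-sided, with Benjamini-Hochberg adjustment over all genes tested. In simulated data with 200 genes changed by a log2 fold of 1, 67.5% were recovered, as were 97.4% of the 115 with a mean of at least 20, and 3.57% of 140 calls were false. Every gene was simulated with the same small dispersion, a setting that suits the mean-variance trend. These rates therefore may not hold for genes of wider spread, such as Nppa (SD 21.4% of the mean in WT). Within-library ratios were compared by exact permutation (Python 3.11.15, numpy 2.4.6, pandas 2.3.3). Exonic lengths came from GENCODE M21, an earlier build, matched for 95.5% of genes.

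Members, gene lists and markers were chosen with earlier results of these data known. Named genes were the members, Mettl3, Esr1, called list genes, neighbours within 100 kb and the 3 genes most like each member. Some further list genes and neighbours were named for their known role, after their values were seen, and some that the rule covers are given by count only. Alternatives were other pseudocounts, filters, scalings and weights, no trend, a replicate block, an atrial index and leave-outs, and 2 were chosen after seeing the data (correction for start positions, and leaving out both libraries lowest in atrial markers).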

Additional observations from a re-analysis of the deposited data

Results flagged for a closer look

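Among 56 genes and ratios, each genotype was checked for 1 library far from its other 3 (the gap to its nearest neighbour over the range of the 4, against Dixon's 95% critical value). None of the 6 natriuretic peptide system genes had such a library. This held in 5 of 111 groups, where chance gives about 5.6, or 1 in 20. In WT libraries it held for Ryr2 (0.915, replicate 3 at 10427 against 9666 to 9731), Rpl22 (0.889, replicate 4 at 201 against 192 to 193), Pam (0.842, replicate 4 at 1539 against 1463 to 1475) and 1 more atrial marker (0.959, replicate 3 at 17 against 110 to 114). Cdh5 was the one such gene in Mettl3 KO libraries (0.845, replicate 2 at 818 against 734 to 747).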

How the results depend on the processing

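Over 20 alternatives the log2 change ranged from 0.75 to 1.19 for Nppa (0.76 to 1.01 without single libraries), 0.34 to 0.55 for Nppb (0.39 to 0.54), 0.66 to 0.75 for Npr3 (0.68 to 0.75), -0.16 to -0.03 for Npr1, 0.01 to 0.09 for Npr2 and -0.27 to -0.11 for Corin (-0.27 to -0.16), without a change of sign. Without the mean-variance trend, limma gave Nppa 0.92 (adjusted p = 0.05), Nppb 0.46 (adjusted p = 0.127) and Corin -0.21 (adjusted p = 0.329), and called 1 of the 6 genes, none (0) of the pathway genes, and 321 genes in all, against 1607. Of the cell type markers it then called 1 (Lum), so that the atrial, endocardial, endothelial, smooth muscle and cardiomyocyte lists held no call. Without both libraries lowest in atrial markers, limma gave Nppb 0.34 (adjusted p = 0.0505) and Corin -0.19 (adjusted p = 0.105), and 2 of the 6 genes were called. With the atrial index, Corin was at -0.11 (adjusted p = 0.309). Without single libraries, 3 to 4 of the 6 genes, 4 to 9 pathway genes and 1019 to 1596 genes in all were called, the lowest without Mettl3 KO replicate 3. Reasons for these losses were not tested. Ratios kept their sign in 11 alternatives each, while their adjusted p says nothing of stability, since the smallest p was 0.0286, or 0.125 with the block. Replicate numbers did not pair the samples (correlations of same-numbered deviations -0.041 to 0.088), and with a replicate block 4 of the 6 genes and 1346 genes in all were called (Corin adjusted p = 0.0321, Gucy1a1 adjusted p = 0.0961). Depth limits genes such as Gm13054, with values of at most 7.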
